A study of Rattus norvegicus with 6 samples.

Results

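Fragments of mitochondrial tRNAs were described in small RNA libraries of AR42J, an established line of rat exocrine pancreas cells. A read was taken as mitochondrial when all of its alignments were to tRNA references of chromosome M, mature or precursor, and each distinct read sequence was counted 1 time per library by its number of reads. This gave 3049 reads of 901 distinct sequences, out of 1671615 tRNA reads of 67949 distinct sequences. No read sequence matched both a mitochondrial and a nuclear tRNA. Only 2 of the 22 mitochondrial tRNAs appear as references in the alignments, Leu-TAA with 1941 reads of 587 sequences and Gln-TTG with 1108 reads of 314 sequences. The other mitochondrial tRNAs were not analysed here.

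The 6 libraries came from 3 untreated samples and 3 samples given 200 µM sodium taurocholate, a bile salt, for 30 min, all of the same line in the same medium. The labels number the replicates but do not say that they were separate cultures, so p-values reflect only how these libraries vary, and that variation may be technical. Before library preparation all samples were deacylated, cleared of 3′ cyclic phosphates, phosphorylated at 5′ hydroxyls and demethylated at m1A and m3C, so fragments with such ends and marks could enter the libraries. tRNA reads carry no marker of cell type, so that label was not tested.

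Mitochondrial tRNAs carry amino acids to the ribosomes that make the proteins encoded by the mitochondrial genome. They are transcribed from both strands within long transcripts in which they separate rRNA and mRNA, and they are cut out at their 5′ end by RNase P and at their 3′ end by RNase Z (ELAC2). The terminal CCA, to which the amino acid is attached, is not in the gene and is added by an enzyme (TRNT1). Leu-TAA, which reads the UUR codons of leucine, belongs to the tRNAs of the heavy-strand transcript and precedes the gene of ND1, a subunit of respiratory complex I. Gln-TTG belongs to those of the light-strand transcript. These assignments are textbook knowledge, since the reference names give no strand, and all alignments were in the sense of the tRNA. No genome coordinates are given, because the build is not given in the sources used here, nor is a mitochondrial annotation.

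The 2 mature references are shown first because every position below is counted on them, from 1 at the 5′ end, with the anticodon in capitals. Their letters were assembled from the bases to which the deposited alignments match. The anticodon loop, the anticodon with a pair of bases on either side, spans bases 34 to 40 of mt-Leu-TAA and bases 31 to 37 of mt-Gln-TTG.
mt-Leu-TAA, 78 nt with CCA: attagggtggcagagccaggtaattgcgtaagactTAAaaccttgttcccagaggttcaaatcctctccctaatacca
mt-Gln-TTG, 74 nt with CCA: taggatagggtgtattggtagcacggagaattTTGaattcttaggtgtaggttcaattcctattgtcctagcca

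Abundant reads that show the kinds of fragment described below are given next, as the libraries held them, with capitals at a base that differs from the reference. They are not a ranking: the read with the complete CCA of Leu had 19 reads, while the same start with an end at base 75 had 50. They are 5 of mt-Leu-TAA, 1 of its trailer (the bases after the mature 3′ end in the precursor) and 4 of mt-Gln-TTG.
Leu 40 to 74, from the end of the anticodon loop to the base before the gene's last: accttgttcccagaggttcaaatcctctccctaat
Leu 30 to 70, from the anticodon stem: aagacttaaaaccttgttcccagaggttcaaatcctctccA
Leu 30 to 71, the same with 1 more base: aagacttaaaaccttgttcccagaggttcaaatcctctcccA
Leu 40 to 78, with the complete CCA: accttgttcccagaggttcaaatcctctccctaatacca
Leu 1 to 25, from the 5′ end: attagggtggcagagccaggAaatt
Leu trailer, 16 nt: gtgtTctttattaata
Gln 18 to 43, from the D arm to the base after the anticodon arm: gtagcacggagaattttgaattctta
Gln 23 to 43, the same end with a later start: acggagaattttgaattctta
Gln 30 to 74, from the anticodon arm to the complete CCA: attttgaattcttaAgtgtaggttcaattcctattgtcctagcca
Gln 29 to 64, the same start region with an internal end: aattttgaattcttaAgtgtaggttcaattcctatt

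Reads of mt-Leu-TAA and mt-Gln-TTG, the only mitochondrial tRNAs with aligned reads, were a small share of the tRNA reads. Whether the other mitochondrial tRNAs were in the reference set is not given here, so their fragments may be missing from this share. Libraries held 193750 to 348451 tRNA reads, of which 313, 677 and 514 were mitochondrial in untreated replicates 1 to 3 and 499, 492 and 554 in taurocholate replicates 1 to 3. The share was 0.162%, 0.194% and 0.224% without taurocholate and 0.148%, 0.193% and 0.181% with it, so the groups overlapped. The means were 0.193% ± 0.0311 (SD, n = 3) and 0.174% ± 0.0235 (SD, n = 3), and a two-sided exact permutation test gave p = 0.40, where 3 against 3 libraries cannot go below 0.1. The 95% Wilson interval of the share was 0.145% to 0.180% in untreated replicate 1 and 0.205% to 0.244% in untreated replicate 3. These intervals did not overlap. Intervals here cover counting error only, since PCR copies of a molecule are not independent.

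Most sequences were rare. Of the 901 distinct sequences, 532 were read 1 time in all libraries together, 65 had at least 10 reads and 26 were present in all 6 libraries. Changes of single sequences could therefore be tested for 3 of them only.

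mt-Leu-TAA, the leucine tRNA, gave more reads than mt-Gln-TTG in every library, from references of 78 and 74 nt. Its level was 970.3, 1309 and 1167 CPM (counts scaled to 1000000 tRNA reads of the library) in the untreated libraries and 1141, 1180 and 1116 CPM with taurocholate. The taurocholate values lay within the untreated range. mt-Gln-TTG, the glutamine tRNA, had 645, 634 and 1071 CPM in the untreated libraries and 334, 749 and 692 CPM with taurocholate. Untreated replicate 3 was the highest and taurocholate replicate 1 the lowest, and the other four lay close together. The light-strand share of mitochondrial reads, which is the share of Gln, was 39.9%, 32.6% and 47.9% without and 22.7%, 38.8% and 38.3% with taurocholate. The groups overlapped (difference -6.90 percentage points, exact permutation p = 0.40), and without taurocholate replicate 1 the difference was -1.60.

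The pair gave fragments of different places. Fragments were sorted by where they lie, with 3 nt of tolerance at each end: tRF-5 and tiRNA-5 start at the mature 5′ end and have up to 30 nt or at least 31 nt, tRF-3 and tiRNA-3 are their counterparts at the 3′ end, and an i-tRF is internal and touches neither end. A tRF-1 lies in the trailer, and other reads that align to the precursor alone were counted as precursor reads. Internal fragments were the majority for both tRNAs, 1144 of the 1941 Leu reads (58.9%) and 820 of the 1108 Gln reads (74.0%). Long 3′ fragments came next, with 502 Leu reads (25.9%) and 208 Gln reads (18.8%). Short 5′ fragments made up 209 Leu reads (10.8%) but 1 Gln read, and long 5′ fragments 1 Leu and 3 Gln reads. Short 3′ fragments were 29 Leu and 69 Gln reads. Trailer reads were found for Leu alone, 51 in all, and precursor reads numbered 5 for Leu and 7 for Gln. Counts under 3 reads in a library correspond to less than 8.61 to 15.5 CPM and are too few to order libraries. The counts of groups without overlap given below still include some of them.

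Leu reads were concentrated in a few starts. Of the 1885 reads on mature mt-Leu-TAA, 471 started at base 30, in the 5′ strand of the anticodon stem, and 355 at base 40, the last base of the anticodon loop. Start 30 had 31, 135 and 56 reads in the untreated libraries and 95, 63 and 91 with taurocholate. Start 40 had 46, 72 and 53 reads without and 77, 46 and 61 with taurocholate. In untreated replicate 1 start 40 exceeded start 30, and in the other five libraries start 30 was the higher. Starts 29 to 33 together held 886 reads, of which 753 ran to base 69 or beyond, and starts 40 to 42 held 551, of which 539 did so. A further 210 reads started at bases 1 to 4. Along the tRNA, 210 reads covered base 10, 1020 covered base 36 in the anticodon and 1495 covered base 60.

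Their 3′ ends were spread over the last 10 bases. Ends from base 69 to base 78 took 1449 of the 1885 reads. Base 74, which is 1 base short of the end of the gene, was the most frequent end with 290 reads, followed by base 71 with 248 and base 70 with 241. Base 75 (the gene's last base) had 203, base 77 had 197 and base 78 (the mature end) had 110. Of these 110 reads, 78 ended in the complete CCA. Ends at base 74 were 25.8%, 15.6% and 18.6% of the Leu reads in the untreated libraries and 16.04%, 10.7% and 10.2% with taurocholate. Taurocholate replicate 1 lay above untreated replicate 2, so the groups overlapped (exact permutation p = 0.20). Of these ends, 15 of 60 in taurocholate replicate 1 and 0 of 70 in untreated replicate 2 carried a mismatched G (T74G). T74C was on 3 and 7 of them. Whether the groups overlap without mismatched last bases was not tested.

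Gln reads had another shape, a short fragment around the anticodon arm. Of the 1101 reads on mature mt-Gln-TTG, 531 started at bases 15 to 24 and ended at bases 39 to 43, as the reads 18 to 43 and 23 to 43 above do. Base 43 alone was the end of 290 reads, with 22, 62 and 77 in the untreated libraries and 23, 57 and 49 with taurocholate. It was the leading end in all libraries but taurocholate replicate 1, where base 74, the mature end, had 26 reads. Another 237 reads started at bases 29 to 33, within and beside the 5′ edge of the anticodon loop, and reached base 69 or beyond, and 59 with those starts ended at bases 54 to 64. Base 10 was covered by 4 Gln reads, base 36 by 996 and base 60 by 402.

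Lengths followed these ends. Among Leu reads 74.7% had 34 to 50 nt, 17.5% had 16 to 24 nt and 7.88% had 25 to 33 nt, and none reached the full read length of 51 nt. Among Gln reads 45.5% had 16 to 24 nt, 23.2% had 25 to 33 nt and 30.6% had 34 to 50 nt, and 8 reads had 51 nt and so show no 3′ end. The mean length of all mitochondrial reads was 31.2, 33.9 and 30.6 nt in the untreated libraries and 34.1, 32.98 and 33.2 nt with taurocholate, with overlapping groups (exact permutation p = 0.30).

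The complete CCA was found on a minority of the reads at the 3′ end when both tRNAs were pooled and for Leu, but not for Gln. Of 808 such reads 219 ended in the whole CCA at the mature end, 78 of 531 for Leu and 141 of 277 for Gln. For Gln the share was 35.0%, 57.9% and 29.2% in the untreated libraries and 69.7%, 62.2% and 48.6% with taurocholate, from 20 to 74 reads per library. The groups overlapped, since taurocholate replicate 3 lay below untreated replicate 2 (exact permutation p = 0.20). For Leu it was 7.69%, 24.6% and 9.09% without and 12.1%, 10.9% and 15.96% with taurocholate, also overlapping. Reads that stop 1 base short of the end of the Leu CCA often differed there: 79 of the 197 reads ending at base 77 carried C77T.

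Many Leu reads ended in the letters CCA before the mature end, inside the 3′ strand of the acceptor stem. Of the 241 reads ending at base 70, 145 carried C70A, and of the 248 ending at base 71, 87 carried T71A. Since the bases before them are cytosines, all 232 of these reads, of 22 distinct sequences, end in CCA, like the reads 30 to 70 and 30 to 71 above. They were present in every library, with 17, 62 and 26 reads in the untreated libraries and 44, 39 and 44 with taurocholate. As a share of the Leu reads ending at bases 69 to 78 they were 12.4%, 17.6% and 14.4% without and 14.5%, 17.3% and 17.6% with taurocholate, so the groups overlapped (exact permutation p = 0.40). A further 45 Leu reads had an A inserted before base 70, after the same CC. Other single-base changes at these ends were rarer, with 22 reads of C70T and 23 of T71C. Changes to G at the last base came mostly from 1 library: C70G had 15 of its 18 reads, T71G 12 of 19, T74G 15 of 16 and A78G 13 of 17 in taurocholate replicate 1. In that library 18.4% of mitochondrial and 21.4% of nuclear tRNA reads ended in a mismatched G, against 0.584% to 4.15% and 1.29% to 7.37% in the other five.

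At 4 positions most reads of every library differed from the reference in the same way. In mt-Gln-TTG, 475 of the 480 reads that cover base 44 before their last base carried G44A (99.0%), and 73 of 85 carried T16A (85.9%). In mt-Leu-TAA, 117 of 122 carried T21A (95.9%). In the Leu trailer, 50 of 51 reads carried A5T, counted from the first base of the trailer. The next most frequent inside change with at least 200 covering reads was G9A in Leu, in 5 of 210 reads. Alignments were allowed 1 edit, so a read over one of these bases could carry no other difference, and a Gln read over both bases 16 and 44 could hardly be aligned. Long Gln fragments from the 5′ end, and Gln reads past base 44 with another change, can therefore be missing from these counts. What underlies the 4 positions was not tested.

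Trailer reads of Leu were few but uniform. Of the 51 reads, 50 started at the first base after the mature 3′ end, and they had 16 to 24 nt. That base lies where RNase Z cuts, and in mammals the trailer of this tRNA opens the ND1 message. The library counts were 5, 7 and 4 without and 10, 9 and 16 with taurocholate, which is 25.8, 20.1 and 17.4 CPM against 29.6, 35.3 and 52.2 CPM. Every taurocholate value was above every untreated one (exact permutation p = 0.10, the smallest it can give). The feature did not pass the low-count filter of the fit. In the fit without that filter, edgeR's quasi-likelihood test gave a log2 fold change of 1.03 (SE 0.59, adjusted p = 0.69), so the difference did not pass the test.

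No mitochondrial feature passed the test for a change with taurocholate. edgeR's quasi-likelihood test with Benjamini-Hochberg adjustment, fitted on all tRNAs by anticodon, called 0 of 78 features at an adjusted p under 0.05, a background of 0%, with 4 at an unadjusted p under 0.05, and DESeq2 called 0. The log2 fold change was 0.09 (SE 0.17, adjusted p = 0.87) for mt-Leu-TAA. It was -0.32 (SE 0.31, adjusted p = 0.71) for mt-Gln-TTG, with -0.07 without taurocholate replicate 1, -0.06 without untreated replicate 3 and -0.55 without taurocholate replicate 2.

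By tRNA and place, 6 of the 13 mitochondrial features passed the low-count filter, and edgeR called none of them. Over all 237 features tested edgeR called 0 (0%), with 23 at an unadjusted p under 0.05 and none of these mitochondrial. DESeq2 called 1, not mitochondrial. Of the 6, 4 had a fold change above 0 and 2 below, with a median log2 fold change of 0.18 against 0.02 over all features. The long 3′ fragments of Leu had 38, 112 and 51 reads without and 117, 96 and 88 with taurocholate, which is 196, 321 and 222 CPM against 346, 377 and 287 CPM. Untreated replicate 2 lay above taurocholate replicate 3, and the log2 fold change was 0.57 (SE 0.27, edgeR adjusted p = 0.48). It was 0.20 with a tolerance of 5 nt at the ends and 0.90 without untreated replicate 2.

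The internal fragments of Leu had 666, 809 and 762 CPM without and 600.0, 639 and 627 CPM with taurocholate. All 3 taurocholate values lay below the untreated ones, in a table where 17.7% of the 237 features had groups that did not overlap, and this was the single one of the 6. With TMM scaling the log2 fold change was -0.12 (SE 0.18, edgeR adjusted p = 0.83). It was 0.01 with a tolerance of 1 nt and -0.48 with error-free alignments. The internal fragments of Gln had 542, 462 and 853 CPM against 237, 557 and 444 CPM, with a log2 fold change of -0.43 (SE 0.34, edgeR adjusted p = 0.64). The groups overlapped, and taurocholate replicate 1 was the lowest. The fold change was -0.18 without untreated replicate 3, -0.20 without taurocholate replicate 1 and -0.72 without taurocholate replicate 2.

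The remaining tested features overlapped between the groups. The 5′ fragments of Leu had 72.3, 141 and 148 CPM without and 136, 106 and 127 CPM with taurocholate (log2 fold change 0.16, SE 0.30, edgeR adjusted p = 0.88). The long 3′ fragments of Gln had 56.8, 135 and 161 CPM against 62.1, 118 and 202 CPM (log2 fold change 0.21, SE 0.46). Its short 3′ fragments had 46.5, 28.7 and 47.9 CPM against 35.5, 58.8 and 39.2 CPM (log2 fold change 0.29, SE 0.36), with 0.05 without taurocholate replicate 2, 0.11 without untreated replicate 2 and 0.44 without taurocholate replicate 3.

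Of the 901 sequences, 3 passed the filter, all from Leu, and edgeR called none of the 2233 sequences tested over all tRNAs (0%), with 315 at an unadjusted p under 0.05. DESeq2 called 20, none of them mitochondrial. The read 40 to 74 had 20, 23 and 20 reads without and 25, 11 and 19 with taurocholate (log2 fold change -0.25, SE 0.38, edgeR adjusted p = 0.78). The read 41 to 74, which starts 1 base later, had 10, 14 and 9 reads against 9, 5 and 4 (log2 fold change -0.87, SE 0.46, edgeR adjusted p = 0.43). It was -1.39 without taurocholate replicate 1 and -0.52 without taurocholate replicate 3. The read 30 to 70 that ends in CCA had 6, 27 and 12 reads against 15, 9 and 24 (log2 fold change 0.10, SE 0.43, edgeR adjusted p = 0.92). The most abundant Gln read, 18 to 43, had 2, 9 and 10 reads against 5, 11 and 8, too few for the fit.

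Within the mitochondrial reads, the shares of several places did not overlap between the groups. Internal fragments were 74.8%, 65.4% and 72.2% of mitochondrial reads in the untreated libraries and 56.7%, 62.0% and 59.2% with taurocholate. All 3 taurocholate libraries lay below all 3 untreated ones, with means of 70.8% ± 4.82 (SD, n = 3) and 59.3% ± 2.64 (SD, n = 3). Long 3′ fragments were 15.7%, 23.5% and 17.1% against 27.7%, 25.6% and 27.1%, with taurocholate above untreated in each library. The exact permutation p was 0.10 for both, the smallest 3 against 3 can give, and 0.14 after adjustment over the 7 places. With error-free alignments only, the long 3′ shares overlapped between the groups (exact permutation p = 0.20). In all, 5 of the 7 places did not overlap, but shares have a common total, and tRF-1 and precursor reads rest on 51 and 12 reads. The precursor reads numbered 1, 2 and 1 without and 2, 3 and 3 with taurocholate, too few to order. Among nuclear tRNA reads 2 of the 7 places did not overlap.

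In the nuclear reads of the same libraries the internal share was 21.0%, 17.6% and 21.5% without and 14.2%, 17.2% and 19.4% with taurocholate, with overlapping groups. The mitochondrial minus the nuclear internal share was 53.7, 47.8 and 50.7 percentage points without and 42.5, 44.8 and 39.8 with taurocholate, again without overlap (exact permutation p = 0.10). The share of trailer reads was higher with taurocholate among mitochondrial reads and lower among nuclear ones: 1.14% ± 0.419 (SD, n = 3) without and 2.24% ± 0.568 (SD, n = 3) with taurocholate for the former, and 1.63% ± 0.108 and 1.12% ± 0.222 for the latter, with no overlap in either.

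By tRNA, the internal and the 3′ shares did not overlap between the groups in Leu and did in Gln. The trailer share overlapped within Leu, at 2.66%, 1.53% and 1.49% without and 2.59%, 2.99% and 4.68% with taurocholate (exact permutation p = 0.20). Internal fragments were 68.6%, 61.8% and 65.3% of Leu reads without and 52.6%, 54.1% and 56.1% with taurocholate, and long 3′ fragments 20.2%, 24.6% and 19.0% against 30.3%, 31.9% and 25.7%. Over all tRNAs, 11.7% of the 248 shares of a place within a tRNA had groups that did not overlap, and 3 of the 8 mitochondrial ones did not, all 3 in Leu. One of these, the short 3′ share, rests on 1, 6 and 4 reads without and 7, 5 and 6 with taurocholate. For Gln the internal share was 84.0%, 72.9% and 79.7% without and 70.8%, 74.3% and 64.2% with taurocholate, and the long 3′ share 8.80%, 21.3% and 15.04% against 18.6%, 15.7% and 29.2%. Whether Leu and Gln differ in this was not tested.

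The border between internal and 3′ fragments of Leu falls between bases 74 and 75, next to its most frequent end, so the tolerance matters. Among Leu and Gln reads together, the internal share differed by -11.5 percentage points at 3 nt, -8.13 at 1 nt and -7.80 at 5 nt. Each was without overlap (exact permutation p = 0.10 each). The long 3′ share of the same reads differed by 8.03 points at 3 nt, 4.85 at 1 nt and 4.26 at 5 nt. At 1 and 5 nt the groups overlapped. Within Leu alone the internal share differed by -10.96 points and the long 3′ share by 8.04 points at 3 nt. Of the ends at the border, base 74 overlapped between the groups, as given above, and base 75 did not. Base 75 ended 8.24%, 10.0% and 8.33% of Leu reads without and 10.7%, 15.1% and 11.4% with taurocholate. The mature Gln end, base 74, ended 5.60%, 15.1% and 6.12% of Gln reads without and 23.0%, 15.3% and 17.6% with taurocholate. Of 16 leading ends compared, these 2 did not overlap, each with an exact permutation p of 0.10 and 0.64 after adjustment over the 16. The share of ends without overlap over all tRNAs is not given here, so this count has no background and no change is read from it.

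Mitochondrial and nuclear tRNA reads of the same library differed in shape in all 6 libraries. Internal fragments averaged 65.0% ± 7.19 (SD, n = 6) of mitochondrial and 18.5% ± 2.73 (SD, n = 6) of all nuclear reads, but nuclear Leu-TAA and Gln-TTG, the tRNAs of the same anticodons, had 53.2% and 62.5%. 5′ fragments averaged 6.84% against 28.9%, and 3′ fragments 26.0% against 47.8% of all nuclear reads. The lower 3′ share did not hold against nuclear Gln-TTG, as given below. Among 3′ fragments 87.1% of the mitochondrial and 1.38% of the nuclear reads had at least 31 nt. The complete CCA was on 25.4% of mitochondrial and 60.6% of nuclear 3′ reads. The 2 mitochondrial tRNAs differed in this, with 78 of 531 reads for Leu and 141 of 277 for Gln. In taurocholate replicate 1 the share was 69.7% for Gln and 47.3% for nuclear reads. In the other libraries Gln lay below the nuclear reads. Mean length was 32.7 against 23.9 nt. A mismatched A at the last base was on 11.6% of mitochondrial and 5.29% of nuclear reads. Each of these 7 measures, over all mitochondrial and all nuclear reads, went the same way in 6 of 6 libraries. For each, the two-sided exact sign-flip permutation p was 0.0312, the smallest that 6 libraries allow, and 0.0347 after adjustment over 10 measures. The share of reads with any mismatched last base did not differ in direction, higher in 3 and lower in 3 libraries (26.2% against 27.3%, exact permutation p = 0.59). A mismatched G at the last base was on 4.305% of mitochondrial and 5.87% of nuclear reads, and a difference inside the read on 31.8% and 14.4%. Both went 1 way in 6 of 6 libraries (exact sign-flip permutation p = 0.0312 each). Of 403 mature references of both kinds, 323 have a found 3′ end, and reads of the others count as internal unless they start at the 5′ end.

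In the nuclear tRNAs of the same anticodons internal fragments were the majority too, 53.2% of nuclear Leu-TAA reads against 58.9% of mt-Leu-TAA reads and 62.5% of nuclear Gln-TTG reads against 74.0% of mt-Gln-TTG reads. These shares are over the reads of all libraries and were not tested. Nuclear Leu-TAA had 1791 reads, close in number to the 1941 of its mitochondrial counterpart, with a mean length of 20.8 nt against 35.2 nt and long 3′ fragments at 1.005% against 25.9%. Nuclear Gln-TTG had 3301 reads, with a mean length of 26.4 nt against 28.6 nt. Its long 5′ fragments were 11.4% and its precursor reads 18.8%, against 0.271% and 0.632% in mt-Gln-TTG. Short and long 3′ fragments were 0.0% and 0.454% of nuclear Gln-TTG reads, against 6.23% and 18.8% of mt-Gln-TTG reads. Short 3′ fragments were 23.4% of nuclear Leu-TAA reads against 1.49% of mt-Leu-TAA reads. Reads of references without a found 3′ end count as internal, and whether nuclear Gln-TTG has such references is not given here.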

How the data were processed

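Small RNA reads of 6 libraries were analysed from the deposited alignments. The submitters' processing notes name FastQC, cutadapt and Novoalign 2.07.11, while genome build and further versions were not given in the sources used here. What the authors deposited are counts: each line, per the file headers, is an alignment of a distinct read sequence to a tRNA with its number of reads. Reads had 16 to 51 nt and alignments at most 1 edit. The members and lists were chosen with earlier results of these data known. Neighbour clusters and tRNAs flanking rRNA genes were listed too, but only 2 tRNAs appear, so those lists were not described.

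The 3′ end of a reference was the last CCA of its error-free reads, found for 323 of 403 mature references. A read with several places took the most frequent, mature before precursor. Features by anticodon, by place and by sequence were fitted in edgeR 4.0.16, R 4.3.3 (quasi-likelihood test, TMM, filterByExpr, Benjamini-Hochberg, group as the sole term), and checked on simulated counts. CPM values use the library's tRNA reads without TMM factors, while fold changes use TMM. The SE is from the F statistic. Exact permutation tests over libraries, two-sided, compared shares. The ends, last-base changes, early CCA and mitochondrial against nuclear measures were added after seeing the data. Values in every library are given for both tRNAs and for all features that passed the filter, and sequences were named by abundance or for being tested. Reads that show 1 kind of fragment each were chosen after their values were seen.

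Alternatives were DESeq2 1.42.0, library totals without TMM, no filter, a replicate block, error-free alignments, no full-length reads, other tolerances (the 5 nt one chosen after seeing the data), another denominator and each library left out.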

Additional observations from a re-analysis of the deposited data

How the results depend on the processing

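No call of a mitochondrial feature arose under any alternative run for the anticodon, place and sequence fits. Over all tRNAs, calls by place were 0 in the edgeR fit, 1 with DESeq2 and 5 of 543 without the low-count filter; calls by sequence were 0 with edgeR and 20 with DESeq2. Among Leu and Gln reads together, the lower internal share kept its direction throughout, from -14.2 to -9.50 percentage points with 1 library left out. The short 5′ share reversed to -0.725 points with error-free alignments, and the long 5′ share, on 4 reads, ran from -0.0366 to 0.0877 with 1 library left out. Small fold changes changed sign, and the cause was not tested. For mt-Leu-TAA the log2 fold change was -0.0065 with library totals, -0.046 with error-free alignments and -0.0221 to 0.2286 with 1 library left out. For its internal fragments it was 0.013 with a tolerance of 1 nt, 0.0297 with 5 nt and -0.1997 to 0.0102 with 1 library left out. For the same fragments it was -0.2642 with library totals and -0.4814 with error-free alignments (edgeR adjusted p = 0.51 for the latter). With 1 library left out, the short 5′ fragments of Leu ran from -0.0788 to 0.3688. The long 3′ fragments of Gln then ran from -0.2041 to 0.48 and the read 40 to 74 from -0.6653 to 0.0141. Without a sign change, the internal fragments of Gln ran from -0.7236 to -0.1797, its short 3′ fragments from 0.0512 to 0.4363 and the read 41 to 74 from -1.3874 to -0.5188, the last not tested without untreated replicate 2. The read 30 to 70 had -0.0767 with library totals and ran from -0.1491 to 0.5616 with 1 library left out. Library totals moved the median of all place features from 0.02 to -0.12 (log2). Correlations were -0.20, 0.05 and 0.28 between same-numbered libraries of the groups and -0.46 to 0.30 between differently numbered ones. With 3 libraries per group these cannot show whether the replicate numbers pair the libraries. With the replicate block the log2 fold change was 0.11 for mt-Leu-TAA and -0.34 for mt-Gln-TTG, with 0 calls. With 313 to 677 mitochondrial reads per library, features of a few reads cannot show a difference at this depth.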
